A study of Sus scrofa with 23 samples.

Results

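C1QTNF6 (ENSSSCG00000030325) and C1QTNF9 (ENSSSCG00000009285) are 2 of the 25322 genes counted by RNA-seq in the subcutaneous back fat (backfat) of 23 crossbred fattening pigs. They were chosen by earlier results in the same libraries: In the study's tables of differentially expressed genes (DEGs), C1QTNF6 was listed for group III against group I and C1QTNF9 for group IV against group I. The discussion in the study assigns the 2 genes to these fat sources the other way round, and its tables were followed here. The symbol of ENSSSCG00000030325 is that of the study, since the name table used here gives C1QTNF6 to another identifier that the counts do not hold. The control diet, with rapeseed oil and no cDDGS (-cDDGS+rapeseed oil), was fed to the 7 pigs of group I, of which 4 were females. Group II (+cDDGS+rapeseed oil) comprised 3 pigs of each sex. Beef tallow was the fat in group III (+cDDGS+beef tallow), with 2 females and 3 males, and coconut oil in group IV (+cDDGS+coconut oil), with 3 females and 2 males. cDDGS, corn dried distillers grains with solubles, is what remains of maize after ethanol production. All pigs came from the same cross and were fattened to slaughter weight in individual pens, and according to the study's methods its male animals were barrows, so the sexes compared are gilts and castrated males. Groups I and II shared the fat source and differed in cDDGS, whereas groups III and IV differed from group I in both cDDGS and fat source. The contrast of group III or IV with group I therefore cannot tell the effect of cDDGS apart from that of the fat.

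The proteins of the C1q/TNF-related family (CTRPs) are secreted relatives of adiponectin. Each carries a collagen-like stretch and a globular C1q domain, and the chains assemble into trimers and larger complexes. C1QTNF6 encodes CTRP6, a ligand known for restraining the alternative complement pathway and for its part in adipocyte differentiation and fat tissue inflammation. C1QTNF9 encodes CTRP9, one of the relatives closest to adiponectin, which is known to act through adiponectin receptors and AMP-activated kinase and to relax blood vessels. In fat, such ligands come from adipocytes and also from the stromal, vascular and immune cells between them, and in bulk tissue fewer cells of a type and less RNA per cell cannot be told apart.

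The files hold 2437172 to 7979426 gene counts for each pig. Both genes were therefore seen in few reads, between 20 and 205 per pig for C1QTNF6 and between 7 and 55 for C1QTNF9. Levels are given as counts per 1000000 (CPM) after normalisation by the trimmed mean of M-values (TMM), and they are not compared between the 2 genes because the lengths of the gene models were not used. Adipocyte markers were abundant in every library: the 4 of 8 listed markers that had an identifier (PLIN1, CIDEC, LIPE and PNPLA2) summed to between 1744 and 3176 CPM. ACTA1, the skeletal muscle actin, was the 1 muscle marker of 8 with an identifier and ranged from 0.88 to 1542 CPM. The study reports that undegraded RNA could not be obtained from these samples.

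C1QTNF6 was highest in the group without cDDGS and lowest in the group given cDDGS with beef tallow. In group I the level was 17.9, 38.7, 28.5, 16.0, 18.6, 35.8 and 25.6 CPM in pigs 1, 2, 3, 5, 6, 7 and 8, with a lowest value of 16.0, a median of 25.6 and a highest value of 38.7. In group II it was between 10.4 and 26.9 CPM, with a median of 18.4. In group III the 5 pigs had 15.2, 16.9, 5.97, 8.96 and 10.3 CPM. Of the 7 pigs of group I, 6 were above every pig of group III, and pig 5 of group I was below pig 43 of group III, so the groups overlapped. In group IV the 5 pigs had 14.6, 12.5, 25.7, 6.07 and 12.8 CPM. Pig 53 stood well above the rest of group IV and inside the range of group I, and the other 4 pigs were below every pig of group I.

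The group means of C1QTNF6 followed the order I, II, IV, III. The control pigs had 25.9 ± 8.98 CPM (SD, n = 7). Group II had 19.4 ± 6.44 CPM (SD, n = 6), group IV 14.3 ± 7.13 CPM (SD, n = 5) and group III 11.5 ± 4.50 CPM (SD, n = 5). No neighbours in this order differed by more than the larger of their standard deviations. The spread between pigs of a group, a coefficient of variation of 33.3 to 49.7%, was larger than the 9.14 to 13.0% that counting error alone would give at these read numbers.

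C1QTNF9 showed a different order of groups. In group I the level was 4.02, 3.96, 5.90, 3.77, 2.83, 3.98 and 4.07 CPM in pigs 1, 2, 3, 5, 6, 7 and 8, with a median of 3.98. In group II the 6 pigs had 2.54, 5.31, 7.49, 2.32, 5.37 and 10.9 CPM. This group held the lowest pig of the whole series as well as the third highest. In group III the 5 pigs had 5.56, 4.49, 7.25, 4.48 and 4.93 CPM, and 6 of the 7 pigs of group I were below all of them. In group IV the 5 pigs had 13.6, 8.33, 6.43, 11.2 and 4.12 CPM, so 4 of 5 were above every pig of group I and pig 55 was not.

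The means of C1QTNF9 followed the order IV, II, III, I. They were 8.74 ± 3.77 CPM (SD, n = 5), 5.65 ± 3.21 CPM (SD, n = 6), 5.34 ± 1.16 CPM (SD, n = 5) and 4.08 ± 0.915 CPM (SD, n = 7). Groups IV and II, and groups II and III, differed by less than either standard deviation, whereas groups III and I differed by 1.27 CPM, slightly more than both. The coefficient of variation was 22.4% in group I and 21.6% in group III, close to the 22.9% and 19.3% expected from counting error alone. It was 56.8% in group II and 43.1% in group IV, above the 21.6% and 16.6% of counting error, so at this depth a spread between pigs beyond counting was visible in groups II and IV. Both orders can be read from the plot of levels by pig.

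**Figure D1:**
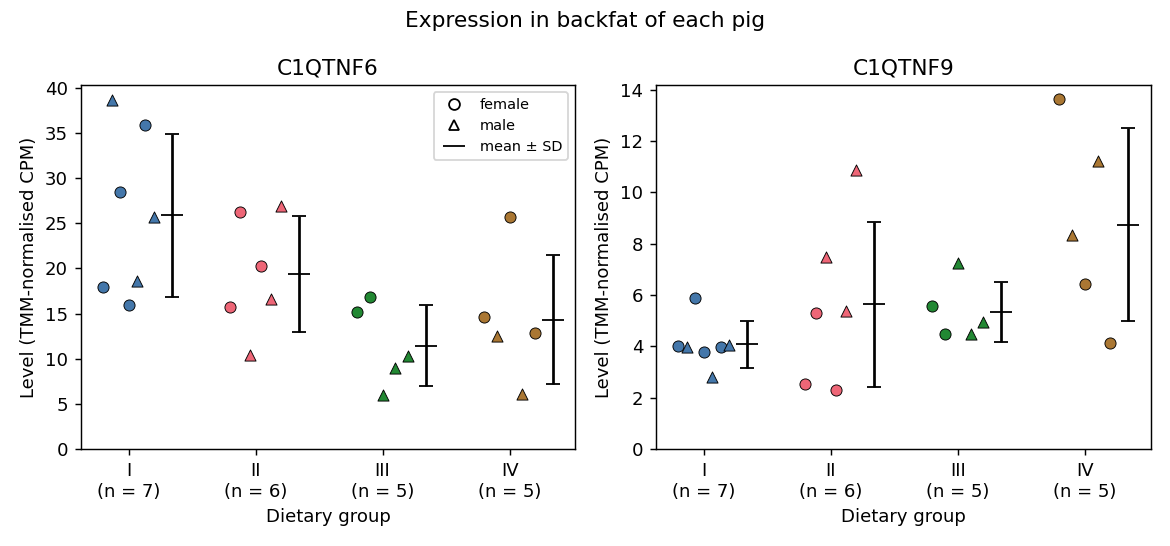
Each point is 1 pig and gives its level in TMM-normalised CPM, with circles for females and triangles for males, by dietary group, and the bars show the mean ± SD. C1QTNF6 (left) lies between 5.97 and 16.9 CPM in group III against 16.0 to 38.7 CPM in group I, and C1QTNF9 (right) reaches 13.6 CPM in group IV against 5.90 CPM in group I.

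The comparisons that chose the genes are given as a description. In edgeR's quasi-likelihood fit, C1QTNF6 was 2.26-fold lower in group III than in group I, a log2 fold change of -1.18 (SE 0.28). It held place 11 among the 10423 genes tested when these were ordered by p. In the DESeq2 fit, the tool the study used, the log2 fold change was -1.18 (SE 0.28) and the adjusted p-value that puts the gene on such a list was 0.0415. C1QTNF9 was 2.10-fold higher in group IV than in group I, a log2 fold change of 1.07 (SE 0.27), at place 86 of 10388 genes. Its DESeq2 log2 fold change was 1.08 (SE 0.30) with an adjusted p-value of 0.0292. With DESeq2, the limits for a DEG (adjusted p under 0.05, fold above 1.3) were met by 0.101% of 12859 genes in group III against I (13 DEGs) and by 1.91% of 8072 genes in group IV against I (154 DEGs). With edgeR the same limits were met by 0% of genes in both comparisons, and 830 and 1475 genes had an unadjusted p under 0.05. The DESeq2 calls of C1QTNF6 and C1QTNF9 were thus not made by edgeR.

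The other contrasts of the same genes share group III, IV or I with those that chose them and are likewise described without a test. For C1QTNF6 the log2 fold change against group I was -0.44 (SE 0.25) in group II and -0.82 (SE 0.30) in group IV. In the 3 groups with cDDGS combined it was -0.77 (SE 0.24), so all 3 groups with cDDGS had lower estimates than group I. Between the groups given beef tallow and rapeseed oil with cDDGS (III against II) it was -0.74 (SE 0.29). For IV against III it was 0.35 (SE 0.35). For C1QTNF9 the log2 fold change against group I was 0.42 (SE 0.31) in group II, 0.36 (SE 0.21) in group III and 0.64 (SE 0.27) in the combined groups. Within the groups given cDDGS it was 0.64 (SE 0.39) for IV against II and 0.71 (SE 0.30) for IV against III. These contrasts share pigs, so their common signs are not independent of each other. As background, edgeR called 0.0291% of 10323 genes in group II against I (3 DEGs) and 0% of 10749 in the combined groups, where 1695 genes had an unadjusted p under 0.05 and DESeq2 called 163. It called 0% of 10410 genes for III against II, with 647 at an unadjusted p under 0.05 and 29 by DESeq2. For IV against III it called 0% of 10230, with 421 at an unadjusted p under 0.05 and 0 by DESeq2.

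**Figure D2:**
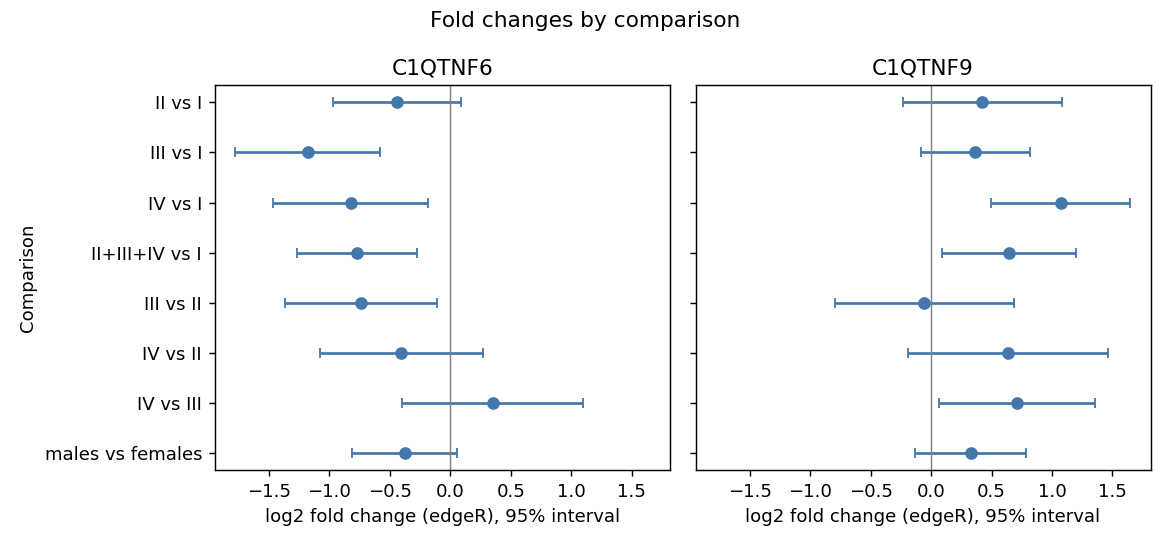
Points give the log2 fold change of C1QTNF6 (left) and C1QTNF9 (right) from edgeR in each comparison, and bars the 95% interval from its standard error. The estimates against group I lie between -1.18 and -0.44 for C1QTNF6 and between 0.36 and 1.07 for C1QTNF9.

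The share of uniquely mapped reads that fell outside annotated genes differed in mean between the groups, and this difference was not tested. Its ranges overlapped, at 53.2 to 60.1% in group I, 54.5 to 69.2% in II, 51.1 to 60.8% in III and 57.7 to 71.3% in IV. The mean share was 56.8 ± 2.53% (SD, n = 7) in the control pigs and 56.8 ± 4.0% (SD, n = 5) in those given beef tallow. It was higher in groups II and IV, at 62.5 ± 5.81% (SD, n = 6) and 63.0 ± 5.05% (SD, n = 5). With this share as a covariate, the log2 fold change of C1QTNF6 in group IV against I was -0.19 (SE 0.29) in place of -0.82, and in group III against II it was -0.42 (SE 0.29) in place of -0.74. The value for group III against I, whose shares had the same mean, was -1.20 (SE 0.29). In group II against I the estimate was farther from 0 with the covariate, at -0.55 (SE 0.33) in place of -0.44, and in the combined groups it was -0.86 (SE 0.27) in place of -0.77. For C1QTNF9 the value was 0.78 (SE 0.36) in place of 1.07 in group IV against I, 0.45 (SE 0.38) in place of 0.71 in group IV against III and 0.60 (SE 0.39) in place of 0.42 in group II against I. Over the 23 pigs C1QTNF6 had a Pearson's r of -0.12 with this share, and of -0.08 after subtraction of the group means. For C1QTNF9 the values were 0.24 and 0.03. The mean share differed between the diets, and its part in the fold changes was not tested further.

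For each gene, 1 pair of groups took no part in the contrast that listed it in the study's tables, and this pair was tested. Under the assignment in the study's discussion, 1 group of each pair would have taken part, and the tests would then not be independent of the choice. C1QTNF6 was compared between the coconut oil and rapeseed oil groups that both received cDDGS (IV against II). Pigs of group IV had 6.07 to 25.7 CPM and pigs of group II 10.4 to 26.9 CPM, and 1 pig of group IV lay below all of group II. The log2 fold change was -0.40 (SE 0.32, 95% interval -1.08 to 0.27) with an adjusted p of 0.990 from edgeR, and an exact two-sided permutation test of the difference of -0.49 in mean log2(CPM + 0.5) gave p = 0.225, or 0.450 after Benjamini-Hochberg adjustment over 2 tests. No difference was detectable, while the interval still includes values below -1. The estimate was -0.73 without pig 53 and -0.22 without pig 54. edgeR called 0% of 10062 genes in this comparison, where 502 had an unadjusted p under 0.05 and DESeq2 called 2.

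C1QTNF9 was compared between the beef tallow and rapeseed oil groups that received cDDGS (III against II). All 5 pigs of group III, at 4.48 to 7.25 CPM, lay within the range of group II, which ran from 2.32 to 10.9 CPM. The log2 fold change was -0.06 (SE 0.35, 95% interval -0.80 to 0.69) with an adjusted p of 0.997 from edgeR. The exact two-sided permutation test of a difference of 0.08 in mean log2(CPM + 0.5) gave p = 0.844, also 0.844 after adjustment over the 2 tests. The 2 estimates had opposite signs and no difference was detectable. With 5 pigs against 6, either permutation test ran over 462 regroupings.

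Sex was in the labels and did not enter the choice of the genes. C1QTNF6 had a median of 17.4 CPM in the 12 females (from 12.8 to 35.8) and of 12.5 CPM in the 11 males (from 5.97 to 38.7). With dietary group as a covariate, the log2 fold change of males against females was -0.38 (SE 0.21, 95% interval -0.81 to 0.06) with an adjusted p of 0.350 from edgeR. C1QTNF9 had a median of 4.30 CPM in females (from 2.32 to 13.6) and of 5.37 CPM in males (from 2.83 to 11.2), with a log2 fold change of 0.33 (SE 0.22, 95% interval -0.13 to 0.79) and an adjusted p of 0.446. Neither gene passed the test, in a comparison where 0.954% of 10276 genes did (98 DEGs).

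The values by sex were not alike in all groups. For C1QTNF6, both females of group III (15.2 and 16.9 CPM) were above its 3 males (5.97 to 10.3 CPM), and the 3 females of group IV (12.8 to 25.7 CPM) were above its 2 males (6.07 and 12.5 CPM). In groups I and II the sexes overlapped, at 16.0 to 35.8 CPM in females and 18.6 to 38.7 CPM in males of group I. For C1QTNF9, the 3 males of group II (5.37 to 10.9 CPM) were above its 3 females (2.32 to 5.31 CPM), and in groups I, III and IV the sexes overlapped. The interaction of sex and diet was tested in edgeR after these values had been seen, and the adjusted p was 1.000 for both genes, with unadjusted p of 0.146 for C1QTNF6 and 0.117 for C1QTNF9. This test called 0 of 11039 genes, and 305 had an unadjusted p under 0.05. DESeq2 was not run for the interaction. With sex as a covariate neither gene was called in any diet comparison.

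Few relatives of the 2 genes could be measured. Of 23 soluble C1q domain ligands listed, 13 had an identifier, and of the 11 besides C1QTNF6 and C1QTNF9 only C1QA, C1QTNF3 and C1QTNF7 passed the low-count filter. ADIPOQ, which encodes adiponectin, was not analysed here because no identifier was paired with it. None of the 3 tested was called in group II, III or IV against I, where the median log2 fold change was 0.08, -0.39 and -0.13, beside 0.00, 0.00 and -0.01 over all genes tested. In these comparisons edgeR called 0.0291%, 0% and 0% of all genes. The absence of diet calls in this and the following lists is therefore not particular to their genes. C1QTNF7, another CTRP, was at 9.87 ± 1.64 CPM (SD, n = 7) in group I and 7.44 ± 3.49 CPM (SD, n = 5) in group III, a log2 fold change of -0.39 (SE 0.26). C1QTNF3, which encodes cartonectin, was at 4.86 ± 5.96 CPM (SD, n = 7) in group I and 2.32 ± 2.71 CPM (SD, n = 5) in group III. C1QA, a chain of complement C1q made largely by macrophages, was at 14.2 ± 7.65 CPM (SD, n = 7) in group I and 41.0 ± 14.0 CPM (SD, n = 6) in group II. Its log2 fold change was 1.51 (SE 0.32), with an adjusted p of 0.156 in edgeR, and it is a gene that the study itself singled out in these samples.

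C1QTNF3 was the ligand called by sex in edgeR. It was at 1.24 to 18.1 CPM in females, with a median of 3.99, and at 0.235 to 4.35 CPM in males, with a median of 1.3. The ranges overlapped, and some males had as little as 1 read. The log2 fold change of males against females was -1.95 (SE 0.48) with an adjusted p of 0.0494 from edgeR, close to the threshold. The call was lost in 16 of 23 fits without 1 pig, with an adjusted p of up to 0.116, and in 5 of 7 other settings. Among the 8 matrix proteins with a C1q domain, 7 had an identifier and 6 were tested by sex. None was called, and all 6 estimates were below 0 in males (median -0.32, beside -0.02 over all genes tested). COL8A1, the type VIII collagen chain, had the largest of them, at -1.60 (SE 0.42) with an adjusted p of 0.0624, and is named after its value had been seen. EMILIN2, an elastic fibre glycoprotein, had a log2 fold change of 0.77 (SE 0.21) in group II against I with an adjusted p of 0.211 from edgeR. MMRN1, multimerin 1 of platelets and endothelium, had the opposite sign in that comparison, at -1.53 (SE 0.52) with an adjusted p of 0.263, and was at 10.3 ± 4.68 CPM (SD, n = 7) in group I and 3.55 ± 2.06 CPM (SD, n = 6) in group II. In group III against I and in the combined groups, 3 of these 6 estimates were above 0 and 3 below, and none was called.

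For receptors and signalling genes of the adiponectin type, the median log2 fold change against group I was 0.03 in group II, 0.07 in III and 0.01 in IV. Single estimates ran from -0.13 to 0.46, from -0.30 to 0.40 and from -0.31 to 0.14. Of 15 listed, 13 had an identifier and 10 were tested, and 0 were called in any comparison with group I. ADIPOR1, one adiponectin receptor, was at 29.2 ± 4.97 CPM (SD, n = 7) in group I and 31.4 ± 5.69 CPM (SD, n = 5) in group IV. ADIPOR2, the other receptor, was at 425 ± 87.2 CPM (SD, n = 7) and 451 ± 46.5 CPM (SD, n = 5). Their log2 fold changes across groups II, III and IV ran from -0.03 to 0.11. CDH13, the T-cadherin that binds adiponectin multimers, was at 21.1 ± 9.05 CPM (SD, n = 7) in group I and 17.3 ± 2.79 CPM (SD, n = 5) in group III. In group II CDH13 was at 25.8 ± 11.4 CPM (SD, n = 6) and in group IV at 17.4 ± 5.81 CPM (SD, n = 5). APPL2, an adaptor of the receptors, had the smallest unadjusted p of the list in the combined groups, with a log2 fold change of 0.34 (SE 0.11) and an adjusted p of 0.138 from edgeR.

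The alternative complement pathway is the route that CTRP6 is known to restrain. Of 13 listed genes, 8 had an identifier and 6 were tested, and none was called. All 6 estimates were above 0 in group II against I, with a median log2 fold change of 1.36 beside 0.00 over all genes tested, and the medians were 0.32 in group III and 0.69 in group IV. C3, the central component, was at 25.7 ± 17.1 CPM (SD, n = 7) in group I and 68.1 ± 111 CPM (SD, n = 6) in group II, where pigs ranged from 5.50 to 292 CPM. CFB, factor B, was at 8.18 ± 3.26 CPM (SD, n = 7) and 22.3 ± 33.0 CPM (SD, n = 6), from 5.21 to 89.4 CPM. In group II both standard deviations exceeded the means, as did those of C5 (14.4 ± 17.0 CPM, SD, n = 6) and CFI (15.0 ± 18.8 CPM, SD, n = 6). CFP, properdin, did not show this spread. It was at 2.42 ± 2.23 CPM (SD, n = 7) in group I, from 0.377 to 5.84 CPM, and 7.00 ± 2.29 CPM (SD, n = 6) in group II, from 4.59 to 10.4 CPM. CFD, the adipocyte protease also called adipsin, was at 46.6 ± 12.1 CPM (SD, n = 7) in group I and 48.7 ± 14.6 CPM (SD, n = 6) in group II. The summed level of 5 macrophage markers with an identifier, of 9 listed, was 28.3 to 128 CPM in group I, 136 to 286 CPM in group II, 56.1 to 178 CPM in group III and 64.9 to 159 CPM in group IV. The list includes C1QA, and its part in the complement values was not tested.

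**Figure D3:**
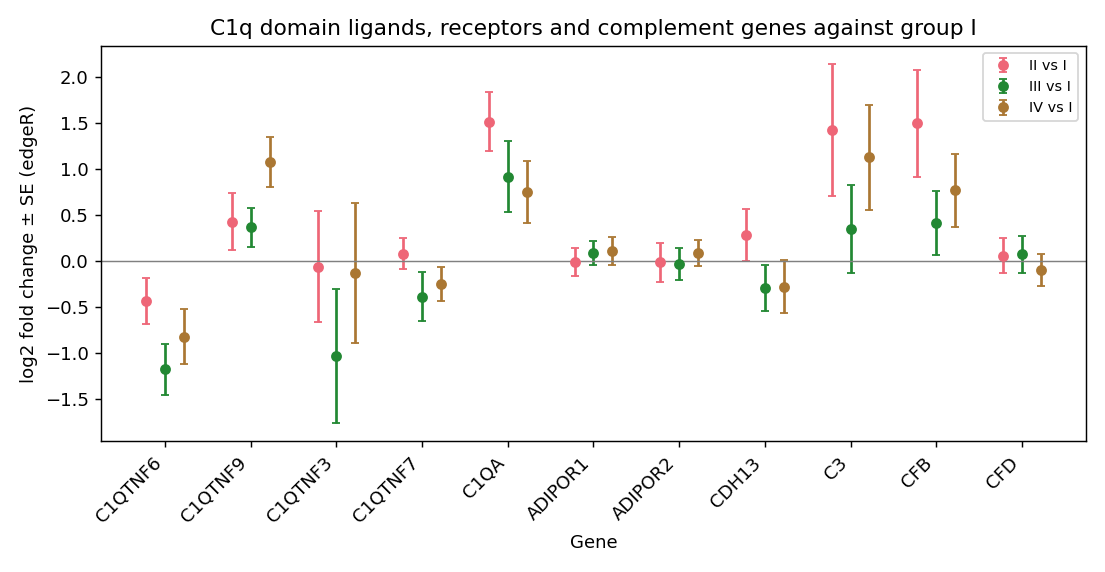
Points give the log2 fold change from edgeR and bars its SE for C1QTNF6, C1QTNF9, the other C1q domain ligands tested, 3 receptors and 3 complement genes, in groups II, III and IV against I. The receptors and CFD lie between -0.30 and 0.28, C1QTNF6 lies below 0 and C1QTNF9 above 0 in all 3 comparisons.

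Collagen-like proteins need hydroxylation and disulfide formation before secretion. Of 13 genes listed for these steps, 8 had an identifier and 5 were tested, and none was called between diets. All 5 estimates were below 0 in group III and in group IV against I, with median log2 fold changes of -0.26 and -0.33. P4HA1, a prolyl hydroxylase subunit, was at 114 ± 15.4 CPM (SD, n = 7) in group I and 90.4 ± 10.2 CPM (SD, n = 5) in group IV, and its log2 fold change in the combined groups was -0.31 (SE 0.08) with an adjusted p of 0.0929 from edgeR. P4HA2, the paralogous subunit, was lower in males than in females by a log2 fold change of -0.62 (SE 0.15) with an adjusted p of 0.0494, a call lost in 19 of 23 fits without 1 pig and in 5 of 8 other settings. Among 10 other adipokines listed, 5 had an identifier and 3 were tested (NAMPT, RBP4 and SFRP5), and none was called between diets. NAMPT, also known as visfatin, was higher in males, with a median of 188 CPM against 125 CPM in females, a log2 fold change of 0.44 (SE 0.09) and an adjusted p of 0.0259. That call was kept in all 8 other settings and lost in 2 of 23 fits, those without pig 8 (0.0582) and without pig 54 (0.0676).

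The genes whose levels were most like those of C1QTNF6 over the 23 pigs were a fibrillar collagen and an extracellular matrix proteoglycan, among others without a symbol. COL1A2, a chain of type I collagen, had the highest Pearson's r of 11038 genes, 0.81 on log2(CPM + 0.5), with a Spearman's rho of 0.83. The mean of COL1A2 was 2200 ± 622 CPM (SD, n = 7) in group I and 2329 ± 979 CPM (SD, n = 6) in group II. In groups III and IV it was 1321 ± 689 CPM (SD, n = 5) and 1566 ± 928 CPM (SD, n = 5). The mean of COL1A2 was thus slightly higher in group II than in group I, where that of C1QTNF6 was lower. After subtraction of the group means r was 0.75, and without the 2 pigs farthest from the median of C1QTNF6 it was 0.71. KERA, which encodes keratocan, a small leucine-rich proteoglycan, was the third (r = 0.79, rho = 0.72). The others of the 5 were ENSSSCG00000027593 (r = 0.79), ENSSSCG00000017581 (r = 0.78) and ENSSSCG00000030275 (r = 0.77), which have no symbol in the name table. The libraries differed in depth, and these correlations are a description. The genes were picked for the highest r of 11038, which inflates their r, and the median r over all of them was 0.003.

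Of the marker lists, the stromal and fibroblast one had the highest r with C1QTNF6. Of 8 stromal and fibroblast markers, 6 had an identifier, and their summed level was 7059 to 12699 CPM in group I, 7266 to 12623 CPM in group II, 4168 to 8894 CPM in group III and 5796 to 10785 CPM in group IV. The sum is mostly COL3A1, the type III collagen chain. Over the 23 pigs its log2 value had r = 0.69 and rho = 0.70 with that of C1QTNF6, and r = 0.58 after subtraction of the group means. In group III against I, 5 of the 6 markers had estimates below 0, with a median log2 fold change of -0.24, and in group IV against I also 5, with a median of -0.20. In group II against I, where the estimate of C1QTNF6 was -0.44, 4 were above 0 and 2 below, with a median of 0.10. None was called in these comparisons. Their part in the C1QTNF6 values was not tested.

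The genes most like C1QTNF9 were others. ENSSSCG00000001728 had the highest r, 0.82 (rho = 0.87), and has no symbol in the name table. MAGI1, a scaffold protein of cell junctions, came next (r = 0.77, rho = 0.81), at 66.9 ± 8.47 CPM (SD, n = 7) in group I and 95.03 ± 17.0 CPM (SD, n = 5) in group IV. KLF10, a transcription factor induced by TGF-beta, had r = 0.77 and rho = 0.81, at 2.72 ± 0.816 CPM (SD, n = 7) and 5.07 ± 1.74 CPM (SD, n = 5). ENSSSCG00000018038 (r = 0.77) and ENSSSCG00000003248 (r = 0.76) followed. After subtraction of the group means r was 0.66 for MAGI1 and 0.71 for KLF10. These genes too were picked for the highest r of 11038, and the median r over all of them was -0.009.

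Of the marker lists, the endothelial one had the highest r with C1QTNF9. The summed level of 4 endothelial markers with an identifier, of 7 listed, was 455 to 988 CPM in group I and 702 to 952 CPM in group IV, so the groups overlapped. That sum is mostly the marker PECAM1, at 634 ± 170 CPM (SD, n = 7) in group I and 760 ± 105 CPM (SD, n = 5) in group IV. In group IV against I, 3 of the 4 marker estimates were above 0 and 1 was below. TEK was at 26.7 ± 3.55 CPM (SD, n = 7) in group I and 22.1 ± 2.36 CPM (SD, n = 5) in group IV. Over the 23 pigs the endothelial sum had r = 0.51 (rho = 0.57) with C1QTNF9, and the summed adipocyte markers had r = -0.48 (rho = -0.60). The part of these cell types in the C1QTNF9 values was not tested. C1QTNF6 and C1QTNF9 had r = -0.31 with each other (rho = -0.34), and r = -0.08 after subtraction of the group means, so within the groups the levels of the 2 genes hardly went together.

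**Figure D4:**
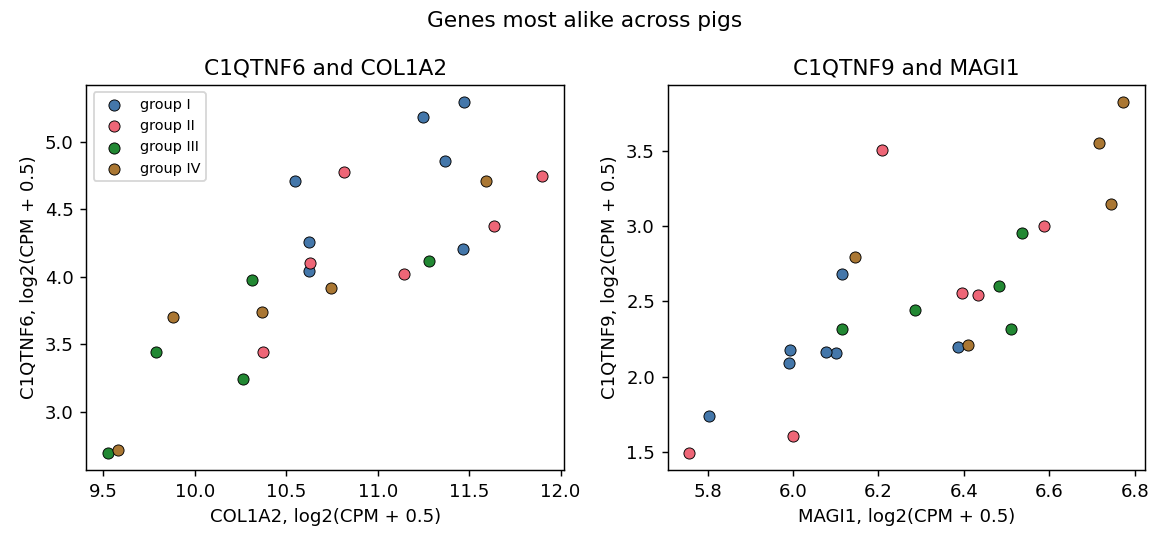
Each point is 1 pig, coloured by dietary group, with both axes as log2(CPM + 0.5): C1QTNF6 against COL1A2 (left, r = 0.81) and C1QTNF9 against MAGI1 (right, r = 0.77). COL1A2 and MAGI1 are the genes with a symbol that had the highest r. The lowest values of C1QTNF6 belong to pigs of groups III and IV, and the 2 highest of C1QTNF9 to pigs of group IV.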

How the data were processed

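RNA-seq was performed on backfat of 23 pigs. The authors depleted ribosomal RNA, prepared stranded libraries, sequenced single-end reads in replicate on 1 flow cell, used FLEXBAR for trimming and TopHat for mapping, and generated read counts with RSEM and HTSeq. The deposited values are raw counts per Ensembl gene, 25322 genes and 5 summary rows per pig. Reads that mapped to several places or outside genes stay out of these counts. Of the gene identifiers, 11804 were paired with a symbol in the name table used here. The table has neither identifier of the 2 genes, whose symbols follow the study's own annotation, and it pairs C1QTNF6 with an identifier absent from the counts. The study names Ensembl Sus scrofa 11.1 as the genome, and whether the identifiers belong to that build was not settled here. Sequences, gene lengths and positions were not used here.

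The 2 genes and the gene lists were chosen with earlier results of these data known. Groups and sex were taken from the sample labels and RNA integrity numbers (RIN) from the study's supplement. Replicate pigs within groups are separate animals. Counts were analysed in R 4.3.3 with edgeR 4.0.16 (filterByExpr, TMM, quasi-likelihood test, Benjamini-Hochberg adjustment over all genes tested) on the pigs of the groups compared, or on all 23 pigs with dietary group as covariate for sex. DEGs had an adjusted p under 0.05 and a fold change above 1.3. Printed CPM were normalised over all 23 pigs. Exact permutation tests used scipy 1.17.1. Named were C1QTNF6 and C1QTNF9, all C1QTNF genes, C1QA, receptors, C3, CFB and CFD, DEGs of the lists, up to 4 genes per list with the smallest unadjusted p in the combined comparison, and the 5 genes with the highest r for each of the 2 genes.

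Alternatives were DESeq2 1.42.0, quality-weighted voom in limma 3.58.1, size factors by median ratio, either no filter on low counts or a minimum of 10 in every pig, RIN, sex or the share of reads outside genes as covariate, all 23 pigs in 1 fit, a pseudocount of 2 CPM and leaving out each pig. The scripts were tested on simulated counts: of genes changed by a log2 fold change of 1, 36.2% were recovered for IV against II (10034 genes), 41.1% for III against II (10193 genes) and 83.2% for males against females (10200 genes), and 0 genes were called where none had been changed. The simulation gave every gene the same dispersion, the spread between pigs beyond counting error, and drew changed genes from all levels. The recovered shares are therefore not the power for C1QTNF6 or C1QTNF9. Figures were drawn with matplotlib 3.10.9.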

Additional observations from a re-analysis of the deposited data

Results flagged for a closer look

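In group I, pig 3 had 5.90 CPM of C1QTNF9, against 2.83 to 4.07 CPM in the other 6 pigs. Its gap to the nearest pig was 0.595 of the range of the group, above the 0.568 of Dixon's test for 7 samples. Such a gap arises by chance in about 1 group in 20, and 8 groups of values were examined. Without this pig the log2 fold change of C1QTNF9 in group III against I was 0.48 in place of 0.36, and over all pigs left out in turn it ran from 0.23 (without pig 45) to 0.48.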

How the results depend on the processing

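Of 364 values of C1QTNF6 and C1QTNF9 under the alternatives, over 16 comparisons, 359 kept their direction and their side of the threshold. Neither gene was called in any main fit, so the side of the threshold could change only where a call was gained. The count also ignores changes in size, such as C1QTNF6 in IV against I at -0.19 in place of -0.82 with the share outside genes as covariate. With RIN as covariate, C1QTNF9 in II against I was 0.24 (SE 0.31) in place of 0.42. In the same setting C1QTNF6 in III against I was -1.22 (SE 0.30) and C1QTNF9 in IV against I 1.06 (SE 0.28). The calls by DESeq2 were the 2 that edgeR did not make: C1QTNF6 in III against I (-1.18, adjusted p 0.0415, and from 0.0415 to 0.594 over the settings other than leaving out pigs) and C1QTNF9 in IV against I (1.08, adjusted p 0.0292, and from 0.0292 to 0.969). C1QTNF9 in III against II turned its direction when single pigs were left out, with a log2 fold change of 0.07 without pig 20, 0.17 without pig 24 and 0.00490 without pig 43, within a range of -0.22 to 0.17. The difference of mean log2(CPM + 0.5) for the same comparison ran from -0.11 to 0.29 and was -0.09 without pig 17, -0.11 without pig 21 and -0.03 without pig 45. The cause was not tested. When any 1 pig was left out, C1QTNF6 in III against I ranged from -1.38 to -1.02 and in IV against I from -1.16 to -0.64, and C1QTNF9 in IV against I from 0.85 to 1.26. C1QTNF9 in II against I was 0.19 without pig 24, in III against I 0.23 without pig 45 and in IV against II 0.42 without pig 49. C1QTNF6 in IV against III was 0.02 without pig 53 and 0.16 with sex as covariate, in place of 0.35. C1QTNF9 had fewer than 10 counts in a pig of every comparison except IV against III, so that filter gave no value for it elsewhere, and DESeq2 gave it no adjusted p in II against I.

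C1QTNF3, P4HA2 and NAMPT kept their direction by sex in every setting run, and the settings for them were added after their calls had been seen. The number of DEGs depended on the tool: 96 by DESeq2 against 3 for II against I, 13 against 0 for III against I, 154 against 0 for IV against I, 163 against 0 for the combined groups, 29 against 0 for III against II, 2 against 0 for IV against II and 258 against 98 for males against females. Without a low-count filter it was 1 for III against I, 2 for the combined groups, 4 for III against II and 158 for sex. Leaving out single pigs gave 0 to 17 DEGs for II against I, 0 to 1 for III against I, 0 to 116 for IV against I (116 without pig 53), 0 to 43 for the combined groups, 0 to 5 for III against II and 33 to 187 for sex. No paired analysis was possible because the replicate numbers follow the accession order and pair no pigs. With 7 to 55 reads per pig, counting error limits every C1QTNF9 value.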
